A study of Mus musculus with 7 samples.

Results

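The Hox genes of the mouse lie in 4 clusters, and their open chromatin was measured here at the 39 protein-coding genes named Hoxa, Hoxb, Hoxc or Hoxd with a number in the GENCODE M21 annotation (mm10). These are 11 Hoxa genes on chromosome 6, 10 Hoxb genes on chromosome 11, 9 Hoxc genes on chromosome 15 and 9 Hoxd genes on chromosome 2, out of 21938 protein-coding genes on chromosomes 1 to 19, X and Y. Bulk ATAC-seq had been run on 7 cultures of HPC7, a hematopoietic progenitor line of the mouse kept with stem cell factor, and each culture batch gave 1 library and 1 list of peaks. The labels place all 7 libraries in a single group and name no treatment, genotype or time contrast. Every comparison was therefore made between genes or regions within a library and then read over the libraries. HPC7 is 1 cell line, so the spread given here is that between cultures of the same line.

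ATAC-seq marks DNA that a transposase can reach, and a called peak is termed an open chromatin region (OCR). Its fold enrichment is the number of reads at the summit over the background of the library, each with 1 added, and a gene was given the highest fold enrichment of the OCRs within 1 kb of its start. A value of 0 means that no OCR was listed there, not that the DNA was closed, since the weakest peaks listed had fold enrichments of 1.68 in the deepest library and 2.44 in the library with the highest floor. The lists held 84593 to 132852 OCRs, and the background was 4.44 to 20.4 reads, highest in HPC7-1. Peak names began with VD in 3 libraries and with EtOH in 4, but the labels give 1 condition, so the names were not compared as groups. Whether the names mark a treatment is not given in the sources used here, and if they do, the spread between cultures includes it.

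Hox genes encode homeodomain transcription factors that assign position along the head-to-tail axis of the embryo, and the order of the genes on the chromosome follows the order of their expression along that axis. Genes at the 3′ end of a cluster act toward the head and carry low paralogue numbers, and genes at the 5′ end act toward the tail. In blood formation several of them are used again in stem and progenitor cells, where the proteins bind DNA with the TALE cofactors Meis and Pbx, where the Kmt2a complex keeps the genes active and where Polycomb complexes keep them silent.

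An OCR lay within 1 kb of the start of 10 of the 39 Hox genes in all 7 libraries (25.6%), of 4 genes in some libraries and of 25 genes in none (64.1%). Over all protein-coding genes the shares were 51.6% in all libraries, 5.44% in some and 42.9% in none. The 10 genes were Hoxa3, Hoxa4, Hoxa5, Hoxa7, Hoxb4, Hoxb5, Hoxb6, Hoxb7, Hoxc6 and Hoxd8. The 4 genes with an OCR in some libraries were Hoxa11, Hoxc4, Hoxc5 and Hoxc10. Among those with none were Hoxa2, Hoxa6, Hoxa9, Hoxa10 and Hoxa13 in the first cluster, Hoxb1, Hoxb2, Hoxb3, Hoxb8, Hoxb9 and Hoxb13 in the next, Hoxc8, Hoxc9, Hoxc11, Hoxc12 and Hoxc13 in Hoxc, and Hoxd1, Hoxd3, Hoxd4, Hoxd9, Hoxd10, Hoxd11, Hoxd12 and Hoxd13 in Hoxd.

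The OCRs sat in the middle of the clusters by paralogue number. Of the 15 genes of groups 4 to 8, 9 had an OCR in all libraries and 4 had none, against 1 of the 8 genes of groups 1 to 3 and 0 of the 16 genes of groups 9 to 13. The exception among the low groups was Hoxa3, whose annotated start lies between those of Hoxa6 and Hoxa7. By cluster the count was 4 of 11 for Hoxa, 4 of 10 for Hoxb, 1 of 9 for Hoxc and 1 of 9 for Hoxd. Group 7 was the only paralogue group with an OCR in all libraries at each of its genes, Hoxa7 and Hoxb7. Groups 1, 2, 9, 10, 11, 12 and 13 had no gene with an OCR in all libraries.

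**Figure D1:**
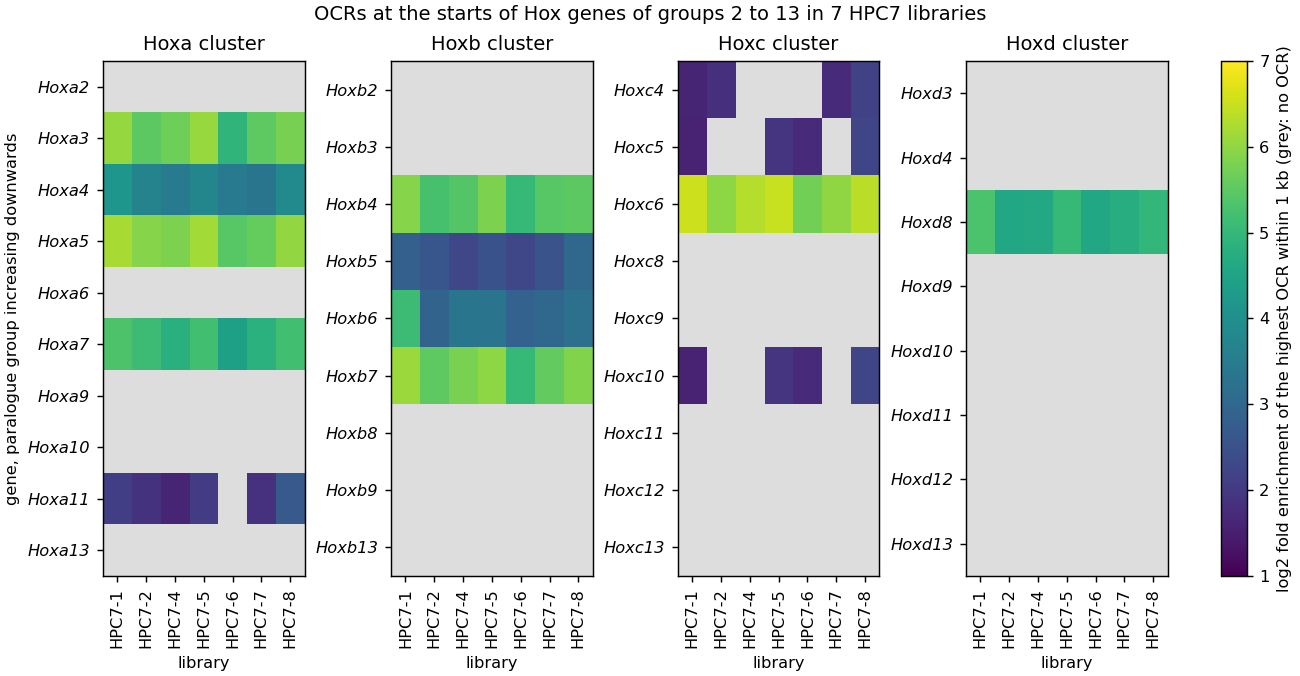
Fold enrichment (log2 scale, colour) of the highest OCR within 1 kb of the starts of the Hox genes of paralogue groups 2 to 13 (rows, paralogue number increasing downwards) in the 7 libraries (columns), with grey where no OCR was listed. Colour fills the rows of 10 genes, 9 of them in groups 4 to 8, and most other rows are grey throughout.

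Promoter sequence is shown for 4 genes because it bears on the next comparison: 3 genes with an OCR in all libraries and Hoxa13, a gene of the 5′ end of its cluster with none. Each run is the 250 bases before the RefSeq start, read 5′ to 3′ on the strand of the gene from the RefSeq table of build GRCm38.p6, in which 22 of the 39 Hox genes had an entry. Capitals mark CG dinucleotides. The runs lie at chr6:52204588-52204837 (minus strand, Hoxa5), chr11:96318017-96318266 (plus, Hoxb4), chr2:74704365-74704614 (plus, Hoxd8) and chr6:52260881-52261130 (minus, Hoxa13).
Hoxa5, OCR in all libraries: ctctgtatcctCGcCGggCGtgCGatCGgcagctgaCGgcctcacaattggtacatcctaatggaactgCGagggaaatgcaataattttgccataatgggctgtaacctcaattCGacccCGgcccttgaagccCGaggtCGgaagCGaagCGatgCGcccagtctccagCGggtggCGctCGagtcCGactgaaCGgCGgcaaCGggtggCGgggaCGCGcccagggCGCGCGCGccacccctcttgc
Hoxb4, OCR in all libraries: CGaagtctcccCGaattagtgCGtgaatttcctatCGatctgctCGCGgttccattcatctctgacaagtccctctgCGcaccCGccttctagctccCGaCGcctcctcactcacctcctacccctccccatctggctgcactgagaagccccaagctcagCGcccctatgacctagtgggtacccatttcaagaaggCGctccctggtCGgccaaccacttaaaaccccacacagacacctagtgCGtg
Hoxd8, OCR in all libraries: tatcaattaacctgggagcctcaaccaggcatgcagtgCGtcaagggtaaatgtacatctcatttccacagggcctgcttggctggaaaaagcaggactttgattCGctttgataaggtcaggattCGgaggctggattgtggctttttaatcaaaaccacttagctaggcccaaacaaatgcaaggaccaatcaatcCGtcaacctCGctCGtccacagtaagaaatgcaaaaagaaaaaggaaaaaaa
Hoxa13, no OCR: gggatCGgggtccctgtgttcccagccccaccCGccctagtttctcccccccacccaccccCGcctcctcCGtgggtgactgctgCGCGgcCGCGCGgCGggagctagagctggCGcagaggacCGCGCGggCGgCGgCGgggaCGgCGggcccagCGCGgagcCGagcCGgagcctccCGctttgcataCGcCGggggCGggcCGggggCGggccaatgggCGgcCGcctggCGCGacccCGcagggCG

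The run of Hoxa13 held 35 CG dinucleotides, more than the 28 of Hoxa5, the 14 of Hoxb4 and the 6 of Hoxd8. The median over all 32851 RefSeq promoters, cut to the same 250 bases, was 6 (quartiles 2 and 16). The run of Hoxa13 held the most of all Hox runs in that table and was chosen for it. Runs of other genes without an OCR ranged widely, from 2 at the gene start of Hoxd11 and 6 at Hoxa2 to 24 at Hoxd1 and 31 at Hoxd13.

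Over all members, CpG content was measured in 500 bp on either side of the gene start, as the ratio of CG dinucleotides observed to those expected from base content. The median ratio was 0.683 over the 10 Hox genes with an OCR in all libraries (0.372 to 0.996) and 0.689 over the 25 with none (0.181 to 0.931). Over all protein-coding genes the medians were 0.734 with an OCR in all libraries and 0.234 with none. Of the 25 Hox genes with a ratio of at least 0.6, 7 had an OCR in all libraries and 17 had none, whereas of the 10083 protein-coding genes at that ratio 82.1% had an OCR in all libraries and 15.8% had none. CpG-rich starts without an OCR were most frequent in Hoxd, with 6 of its 7 such genes, and Hoxc, with 5 of 5. These are counts over genes and carry no test.

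**Figure D2:**
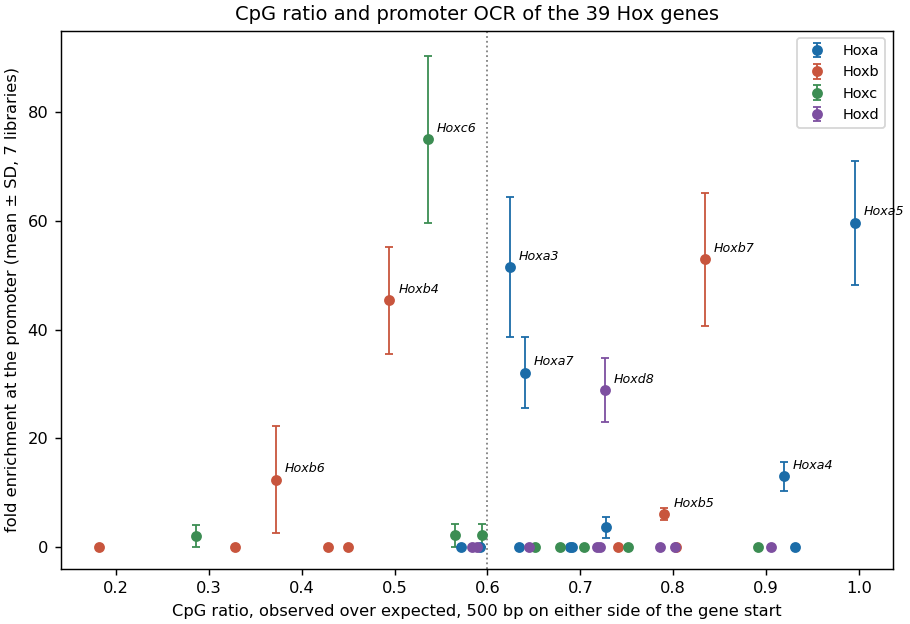
CpG ratio (observed over expected, 500 bp on either side of the start) of the 39 Hox genes against promoter fold enrichment (points, mean; bars, SD over 7 libraries), coloured by cluster, with a dotted line at a ratio of 0.6. Genes at a fold enrichment of 0 run from a CpG ratio of 0.181 to 0.931 and overlap those with an OCR in all libraries, which run from 0.372 to 0.996.

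The OCR at Hoxc6 (chr15:102998257-103011881, plus strand) had the highest fold enrichment of any Hox gene, with a lowest value of 52.4, a median of 80.7 and a highest value of 93.0 over the libraries. Its mean was 75.03 ± 15.4 (SD, n = 7), from 334 to 1987 reads at the summit. The summit lay 1119 bp into the gene, in an intron and outside the 1 kb window, while the OCR itself (chr15:102998382-103000216) reached into the window and also into that of 500 bp. The gene start is that of a noncoding transcript. Within 1 kb of the start of the protein-coding Hoxc6 transcript, 11.3 kb further on, no OCR was listed in any library.

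In Hoxa, the OCR of Hoxa5 (chr6:52201754-52204587, minus strand) ranged from 43.6 through a median of 60.1 to 74.0 in fold enrichment, with its summit 47 bp inside the gene. Hoxa3 (chr6:52169062-52213336) ranged from 30.5 through 50.8 to 67.0, and Hoxa7 (chr6:52214491-52221854) from 21.1 through 34.4 to 39.9. Means were 59.7 ± 11.4, 51.5 ± 12.9 and 32.1 ± 6.48 (SD, n = 7). Hoxa4 was lower, from 10.0 to 17.8 with a mean of 13.01 ± 2.66. Thus, of the 4 Hoxa genes with an OCR in all libraries, the highest mean was at Hoxa5 and the lowest at its 3′ neighbour Hoxa4, with no overlap between their ranges. The Hoxa3 value belongs to the upstream start only: at its other protein-coding start, 29.5 kb further into the gene, no OCR was listed, and the summit lay a median of 1649 bp from the upstream start.

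In Hoxb, the OCR of Hoxb7 (chr11:96286623-96290162, plus strand) ranged from 32.2 through 55.4 to 68.4, and that of Hoxb4 (chr11:96318267-96321638), a regulator known for expanding blood stem cells when overexpressed, from 32.2 through 43.5 to 60.2. Their means were 52.9 ± 12.3 and 45.4 ± 9.86 (SD, n = 7). The summit at Hoxb7 lay 1171 bp upstream of the start in all libraries, and that at Hoxb4 495 bp downstream. Hoxb5 was the weakest of the 10 genes, from 4.85 through 5.82 to 8.01 with a mean of 6.07 ± 1.16, resting on 30 to 152 reads at the summit. Hoxb4 and Hoxb7 stood above Hoxb5 in 7 of 7 libraries.

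Hoxb6 was split in a way that depended on the library. In HPC7-1, 1 peak of 3802 bp covered the start and a summit 2.24 kb downstream, with a fold enrichment of 34.5. In the other libraries the same stretch was listed as separate peaks, so that the value at the start was 7.35 to 10.1 and the stronger peak, with fold enrichments of 20.5 to 33.8, fell outside the window. Its mean of 12.4 ± 9.81 (SD, n = 7) became 8.70 without HPC7-1. The merged OCR of 3802 bp was the widest of the 39 OCRs found in all libraries in the clusters and their flanks.

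Hoxd8 (chr2:74704615-74707933, plus strand) was the only Hoxd gene with an OCR at its gene start, from 23.8 through 26.8 to 39.6 with a mean of 28.9 ± 5.83 (SD, n = 7). Hoxd4 had none at its gene start, which it shares within 2 bp with Hoxd3. At another protein-coding start of Hoxd4, 15.1 kb further on, an OCR was listed in all libraries at 22.1 ± 6.56.

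All 10 means lay below 80.1, the median of the same value over the genes of the genome with an OCR in all libraries. As percentiles among all protein-coding genes within a library, where genes without an OCR count as lowest, the 10 genes ran from a mean of 49.4 for Hoxb5 to 72.2 for Hoxc6. In the order Hoxc6, Hoxa5, Hoxb7, Hoxa3, Hoxb4, Hoxa7, Hoxd8, Hoxa4, Hoxb6, Hoxb5, the same by fold enrichment and by percentile, 3 pairs of neighbours differed by less than their spread. The mean log2 ratio was 0.05 ± 0.07 for Hoxb7 over Hoxa3, 0.15 ± 0.21 for Hoxa7 over Hoxd8 and 0.28 ± 0.58 for Hoxa4 over Hoxb6 (SD, n = 7), each with the first gene higher in 6 libraries.

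Paralogues, which descend from 1 ancestral gene, differed in which cluster carried the stronger OCR. Hoxa5 exceeded Hoxb5 by 3.30 ± 0.24 on the log2 scale, in 7 of 7 libraries. In groups 4 and 7 the Hoxb member was the stronger: the log2 ratio of Hoxa4 over Hoxb4 was -1.80 ± 0.24 and that of Hoxa7 over Hoxb7 -0.71 ± 0.18, negative in each library. Hoxc6 exceeded Hoxb6 by 2.81 ± 0.62 (SD, n = 7). No cluster was therefore ahead in every paralogue group. The order in groups 6 and 7 depended on the setting: with the summit required in the window, Hoxb7 and Hoxc6 were at 0 against 32.1 for Hoxa7 and 7.46 for Hoxb6, and at protein-coding starts Hoxc6 was at 0 against 12.4 for Hoxb6. The pairs were picked with the values known, so they carry no test.

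The OCRs at the 4 genes found in some libraries were weak. Hoxa11 had an OCR in 6 libraries, all but HPC7-6, with fold enrichments of 3.08 to 6.41. Hoxc4 had one in HPC7-1, HPC7-2, HPC7-7 and HPC7-8 at 3.09 to 4.51. Hoxc5 and Hoxc10, whose annotated starts are close together, were given the same OCR, at 3.04 to 4.81 in HPC7-1, HPC7-5, HPC7-6 and HPC7-8. These values rested on 18 to 91 reads at the summit and lay below the lowest value of Hoxb5 except in 1 library for Hoxa11, HPC7-8 at 6.41.

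Which genes count as open depends on the window for some members. Under each setting tried, among them windows of 500 bp and 3 kb, 6 genes had an OCR in all libraries, namely Hoxa4, Hoxa5, Hoxa7, Hoxb4, Hoxb5 and Hoxd8. Another 18 genes had none in any library under each setting, 12 of them in groups 9 to 13. With a window of 3 kb, Hoxa6, Hoxb8, Hoxc8 and Hoxd12 also had an OCR in all libraries. When the summit itself had to lie in the window, Hoxb7 and Hoxc6 had none and Hoxa3 kept its OCR in 1 library, and 6 of the 39 genes had an OCR in all libraries.

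Along whole clusters, the span from the first to the last base of the genes was compared by the base pairs covered by OCRs per kb, which does not depend on a window around each gene start. The coverage was 69.8 ± 6.12 bp per kb in Hoxa (105.3 kb), 63.9 ± 8.03 in Hoxb (173.9 kb), 22.8 ± 5.17 in Hoxc (115.8 kb) and 74.2 ± 15.2 in Hoxd (96.8 kb), against 26.1 ± 4.94 over the genome (SD, n = 7). Per library, Hoxc ran from 17.0 to 32.9 and the other clusters from 55.7 to 104.9, so Hoxc lay below them without overlap. Against the genome, the mean of Hoxc lay somewhat lower and the means of the other 3 clusters higher. The difference of any cluster from the genome was not tested.

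Differences between clusters were tested within libraries with an exact sign-flip permutation test (two-sided, 128 sign patterns, smallest possible p = 0.0156), adjusted by Benjamini-Hochberg over 6 pairs. Hoxc was lower than Hoxa by 47.0 ± 2.27, than Hoxb by 41.1 ± 4.12 and than Hoxd by 51.4 ± 11.02 bp per kb in 7 of 7 libraries (adjusted exact p = 0.0188 each). Hoxa exceeded Hoxb by 5.88 ± 2.54 and Hoxd exceeded Hoxb by 10.3 ± 7.69, also in 7 of 7 libraries (adjusted exact p = 0.0188 each). Hoxa minus Hoxd was -4.38 ± 9.25, negative in 5 libraries and positive in 2 (adjusted exact p = 0.281), and -1.28 without HPC7-1. The lead of Hoxa and Hoxd over Hoxb rested on the long stretch between Hoxb13 and Hoxb9: without it, Hoxa minus Hoxb became -36.1 and Hoxb minus Hoxd 31.7. Counted as peaks per 100 kb, Hoxa minus Hoxb was -1.55, the opposite direction and past the test (adjusted exact p = 0.0312). With an equal number of peaks per library, Hoxb minus Hoxd was -2.37 bp per kb and no longer past it (adjusted exact p = 0.263).

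Each cluster stood above its own surroundings, taken as 100 kb on either side. The difference between span and flanks was 66.0 ± 3.49 bp per kb for Hoxa, 39.2 ± 2.45 for Hoxb, 20.1 ± 3.01 for Hoxc and 32.9 ± 9.05 for Hoxd (SD, n = 7), positive in 7 of 7 libraries with an adjusted exact p of 0.0156 over the 4 clusters. The flanks themselves differed: their coverage was 3.76 ± 3.44 around Hoxa, 24.7 ± 5.82 around Hoxb, 2.77 ± 2.99 around Hoxc and 41.3 ± 6.26 around Hoxd. Around Hoxb the 3′ flank held 40.4 ± 8.41 and the 5′ flank 9.05 ± 3.46 bp per kb, and around Hoxd the 5′ flank held 59.7 ± 8.35 and the 3′ flank 22.9 ± 4.30. The 5′ flank of Hoxc held no OCR in any library.

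**Figure D3:**
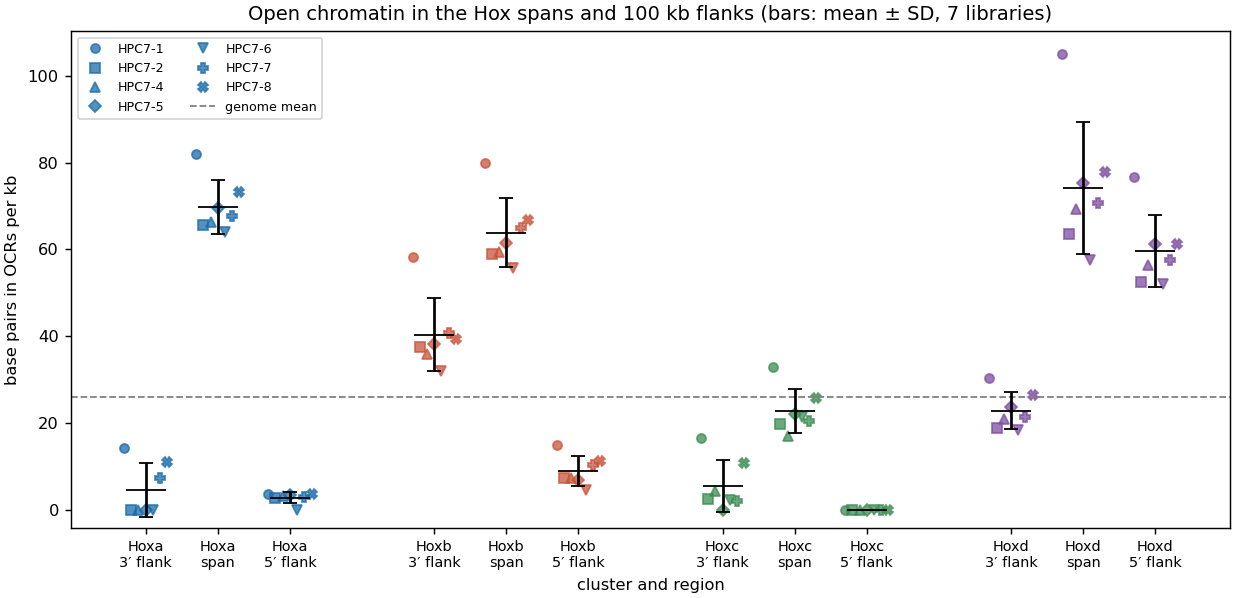
Base pairs in OCRs per kb in the span of each Hox cluster and in the 100 kb on its 3′ and 5′ sides, with 1 symbol per library, black bars for mean ± SD (n = 7) and a dashed line for the genome mean. Each span lies above its 2 flanks combined in every library, and the symbol of HPC7-1 is the highest in each span.

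Within clusters, the segment of paralogue groups 1 to 4 was compared with that of groups 9 to 13, divided at the midpoint between neighbouring gene starts. Coverage was higher in the 3′ segment by 10.4 ± 5.06 bp per kb in Hoxa, 55.4 ± 6.51 in Hoxb and 46.4 ± 9.33 in Hoxd (SD, n = 7), in 7 of 7 libraries each (adjusted exact p = 0.0208 over 4 clusters). In Hoxc the difference was 7.98 ± 8.33, positive in 5 libraries and negative in 1 (adjusted exact p = 0.0625). The segment between, named for groups 5 to 8, was the most covered in each cluster and library, at 216 ± 10.5 in Hoxa, 190 ± 23.0 in Hoxb, 87.0 ± 11.7 in Hoxc and 291 ± 46.5 in Hoxd. In Hoxd it measures only 7.10 kb around Hoxd8, and in Hoxa it takes in the upstream start of Hoxa3. In Hoxc the annotated start of Hoxc5, that of a noncoding transcript, lies outside it in the 5′ segment. The direction in Hoxa and Hoxd depended on where the cluster was divided. At the midpoint of the span, the 3′ side minus the 5′ side was reversed at -36.4 in Hoxa and -16.6 in Hoxd. Both were negative in 7 of 7 libraries. The difference was 98.9 in Hoxb and 40.1 in Hoxc, positive in 7 of 7 libraries each. All were past the test (adjusted exact p = 0.0156). By number of peaks per 100 kb, 3′ minus 5′ was 0.37 in Hoxa, 2.77 in Hoxb and 1.33 in Hoxd, and none passed the test (adjusted exact p = 0.453, 0.0625 and 0.125).

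**Figure D4:**
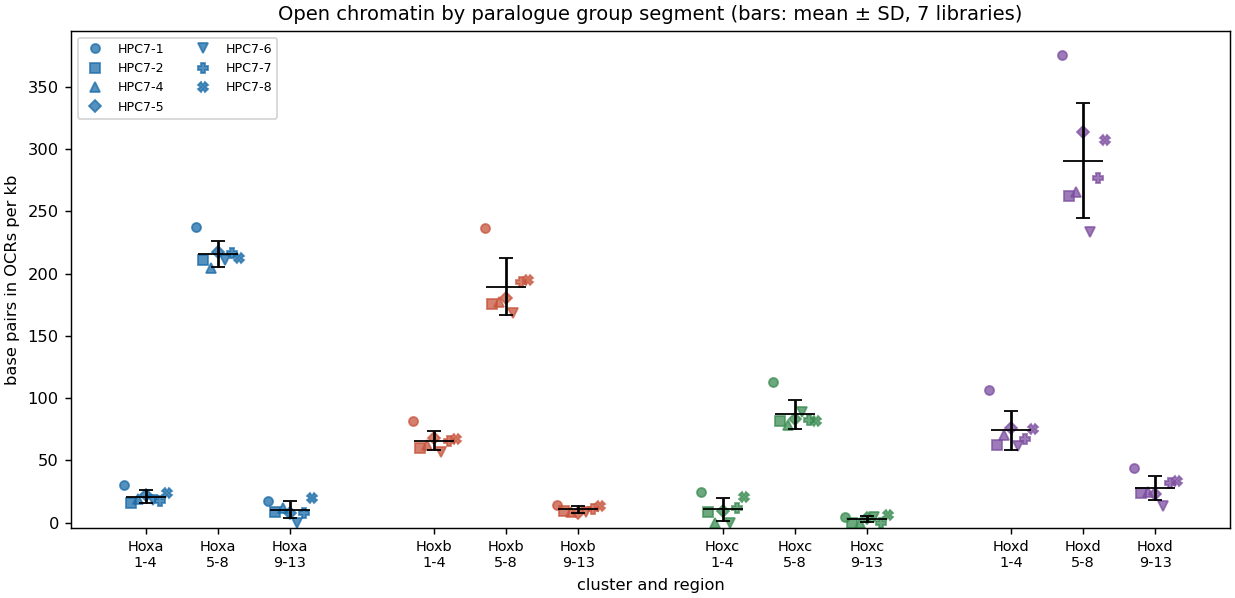
Base pairs in OCRs per kb in the segments of paralogue groups 1 to 4, 5 to 8 and 9 to 13 of each Hox cluster, with 1 symbol per library and black bars for mean ± SD (n = 7). The middle segment is the highest in every cluster, from a mean of 87.0 in Hoxc to 291 in Hoxd, and the 5′ segment the lowest mean.

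After merging over libraries, the spans and flanks held 85 OCRs, 39 of them in all 7 libraries (45.9%), against 66979 of 144931 over the genome (46.2%). The spans held 45, 21 of them in all libraries, and the share differed by cluster, with 10 of 13 in Hoxb, 4 of 8 in Hoxa, 2 of 7 in Hoxc and 5 of 17 in Hoxd. All 4 of the Hoxa OCRs lay at gene starts, 36.4, 49.0, 56.1 and 66.2 kb from the 3′ end of the cluster, whereas 6 of the 10 in Hoxb lay away from any protein-coding start. Of the shared OCRs, 11 of 21 in the spans and 16 of 39 in spans and flanks were at least 1 kb wide, against 39.1% over the genome, which carries no test. The 46 OCRs not found in all libraries reached a fold enrichment of at most 6.41, and 42 of them were listed in HPC7-1, the deepest library.

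**Figure D5:**
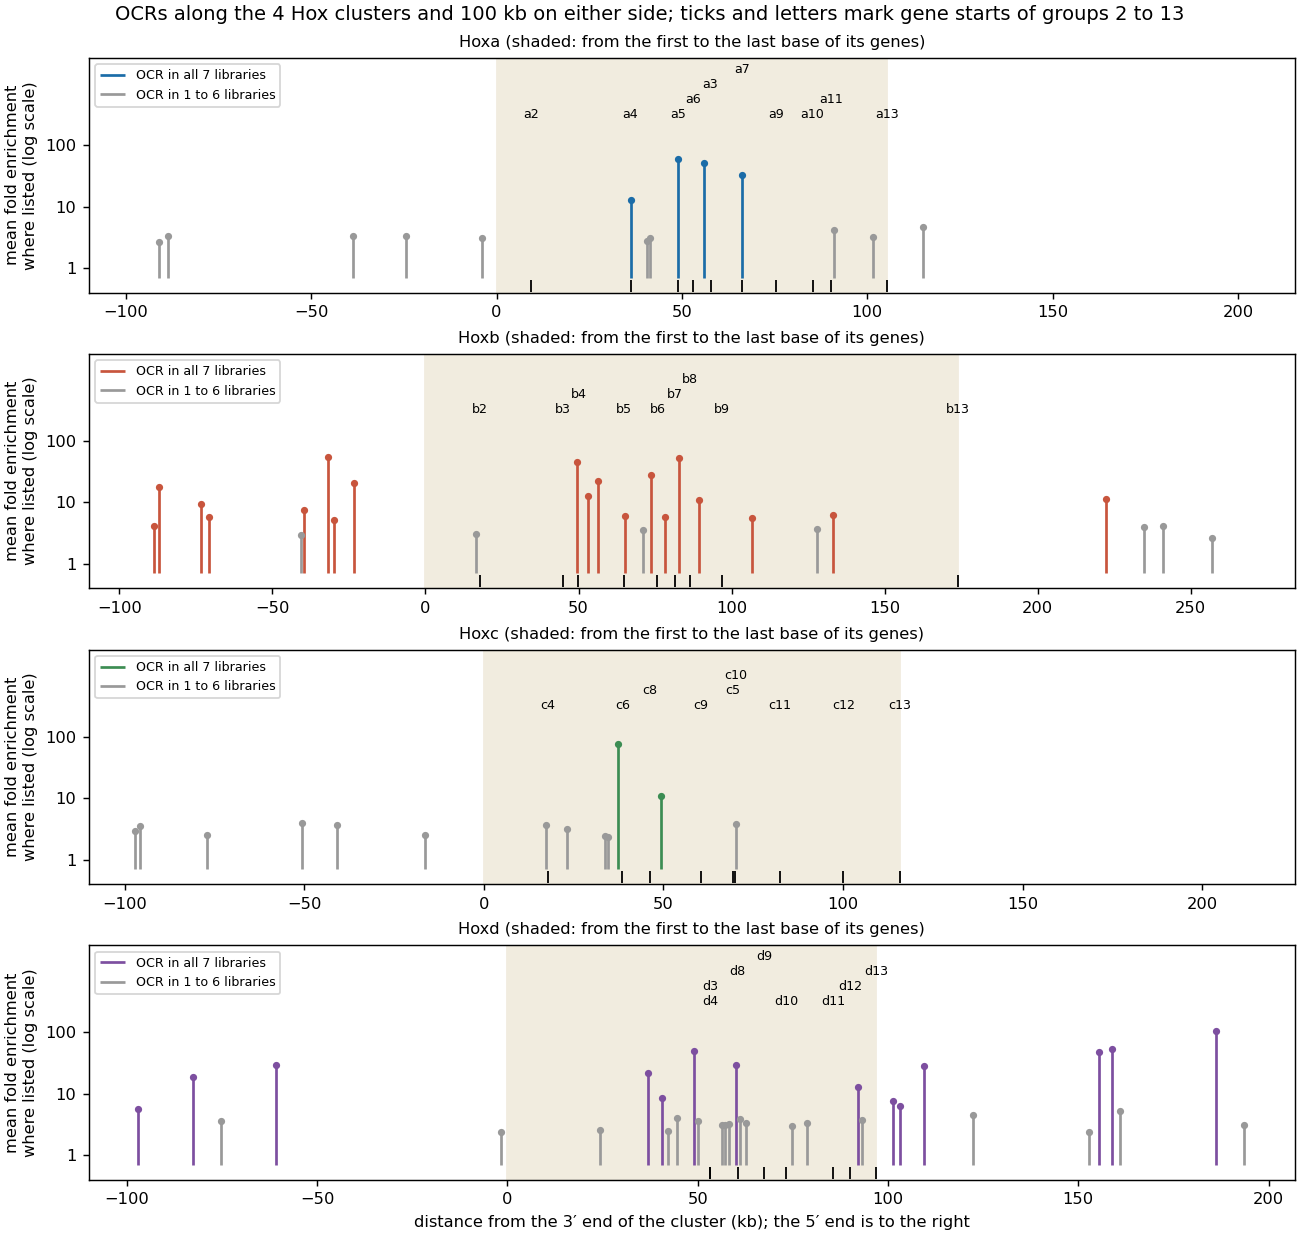
OCRs along the 4 Hox clusters and 100 kb on either side, by distance from the 3′ end (kb), with height for the mean fold enrichment over the libraries that list the OCR (log scale), colour for OCRs in all 7 libraries and grey for the others; ticks and letters mark the starts of genes of groups 2 to 13. Shared OCRs crowd the middle of the shaded spans, and the strongest OCRs outside them lie 3′ of Hoxb and 5′ of Hoxd.

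Away from protein-coding starts, the strongest OCR of the Hoxd span lay 4.11 kb into the Hoxd3 and Hoxd4 genes, at chr2:74715681-74716676, and covered the start of the antisense noncoding gene Hoxd3os1. It ranged from 33.3 to 65.8 with a mean of 50.1 ± 12.96 (SD, n = 7), above Hoxd8. Its summit lay within 44 bp in all libraries. In Hoxb the strongest inside the span lay 6.49 kb upstream of Hoxb4, at chr11:96311053-96312235, from 14.2 to 29.3 with a mean of 22.2 ± 5.14. In Hoxc it lay 3.02 kb upstream of Hoxc8, at chr15:102987339-102987855, from 7.98 to 16.5 with a mean of 10.7 ± 2.99. Hoxa had none in all libraries away from a protein-coding start, and those inside its span were each listed in 2 libraries, at 2.39 to 3.50. Its strongest away from a start lay outside the span, in the 5′ flank 9.76 kb upstream of Hoxa13. That OCR was listed in 6 libraries at 3.90 to 6.09. The next in rank were weak as well, in the 3′ flank of Hoxa in 3 libraries (2.95 to 3.93) and 68.5 kb beyond the start of Hoxc4 in 4 libraries (3.31 to 4.40).

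In the flanks, the strongest OCR lay at the start of Lnpk, 5′ of Hoxd, with a mean of 106 ± 25.9 (SD, n = 7). Between Lnpk and Evx2 an intergenic OCR at chr2:74606042-74606748 ranged from 37.5 to 71.0, with a mean of 53.8 ± 12.3, and another at chr2:74608883-74610286 had 47.8 ± 10.8. On the 3′ side of Hoxb, 34.4 kb beyond the start of Hoxb1, an intergenic OCR at chr11:96399667-96400951 ranged from 34.9 to 73.1 with a mean of 53.7 ± 13.4. The means of these 3 intergenic OCRs lay between those of the promoter OCRs of Hoxb4 and Hoxa5, and each was listed in all 7 libraries. The next strongest OCR 5′ of Hoxd lay in the coding sequence of Evx2, a homeobox gene beside the cluster, at 27.8 ± 7.90, while the starts of Evx1 and Evx2 had no OCR within 1 kb.

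The sequence around the summit is shown for the OCR with the highest fold enrichment inside the spans, at Hoxc6. It is also shown for the strongest OCR inside the spans away from a protein-coding start, at Hoxd3os1. Both are given so that these elements can be recognised. Each run is the 101 bases centred on the median summit, on the plus strand of GRCm38, at chr15:102999326-102999426 and chr2:74715988-74716088. Nothing is in capitals, since none of the motifs searched matched.
Hoxc6 OCR: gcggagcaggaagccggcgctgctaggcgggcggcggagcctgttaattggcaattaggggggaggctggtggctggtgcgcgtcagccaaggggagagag
Hoxd3os1 OCR: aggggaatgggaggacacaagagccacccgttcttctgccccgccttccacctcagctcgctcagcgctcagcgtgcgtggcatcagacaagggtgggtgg

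Motifs of blood and Hox regulators were searched on both strands within 100 bp of the summits of the 21 OCRs shared by all libraries in the spans. The GATA motif AGATAA was found at 2 of 21 (14.8% of the 66979 shared OCRs of the genome), the RUNX motif TGTGGT at 3 (27.0%) and the CDX motif TTTATTG at 1 (1.80%). The ETS motif GAGGAAGT (7.16%), the HOX-PBX motif TGATTNAT (2.82%) and the CTCF core consensus (6.05%) were found at none. Only exact matches to a consensus were counted, so sites that depart from it were missed. The absence of a match is therefore not evidence that a factor does not bind there. The GATA matches lay at the OCR of Hoxd8 and at one 3.06 kb upstream of Hoxb4, and the CDX match at that of Hoxa3. With 21 windows these counts are too few to compare with the genome.

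The clusters also carry microRNA genes of 2 families, and their mature sequences are shown because the families differed in open chromatin. All are from RefSeq (GRCm38.p6), with the seed, bases 2 to 8, in capitals.
miR-10a-5p, in Hoxb: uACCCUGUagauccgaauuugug
miR-10b-5p, in Hoxd: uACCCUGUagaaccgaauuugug
miR-196a-5p, in Hoxb and Hoxc: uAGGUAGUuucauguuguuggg
miR-196b-5p, in Hoxa: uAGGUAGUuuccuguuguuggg

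The members of a family share a seed and differ by 1 base, U12A between miR-10a-5p and miR-10b-5p and A12C between miR-196a-5p and miR-196b-5p, counted from 1 at the 5′ end. An OCR lay within 1 kb of the start of both miR-10 hairpins in all libraries, at 45.4 ± 9.86 for Mir10a (chr11:96317165-96317274) and 22.1 ± 6.56 for Mir10b (chr2:74726070-74726137). The first is the OCR of Hoxb4 and the second that of the inner Hoxd4 start, so neither is separate from its host region. None of the 3 hairpins of miR-196 had an OCR within 1 kb in any library, and the nearest shared OCR lay 3.24 kb from Mir196a-1, 14.0 kb from Mir196a-2 and 7.65 kb from Mir196b. Of 41 noncoding genes listed in the spans, 3 had an OCR in all libraries (Mir10a, Mir10b and Hoxd3os1), 4 in some, 34 in none. Those with none included Hotairm1, Hotair and Haglr. Over all 22497 genes of the annotated types listed, processed pseudogenes among them, the shares were 15.1% in all libraries, 7.27% in some and 77.6% in none. These counts carry no test, and the list of 41 leaves out 9530018H14Rik in the Hoxa span. That gene had an OCR within 1 kb of its start in HPC7-1 and HPC7-8, at 2.85 and 3.50.

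Genes that act with or on the Hox genes were, in contrast, mostly open at their starts, read against the 51.6% of all genes. An OCR in all libraries lay at 9 of 9 TALE cofactors, with Pknox2 at 16.8 ± 2.62 and Meis1 at 88.8 ± 18.0, at 7 of 7 activating regulators, with the methyltransferase gene Kmt2a at 69.7 ± 12.4, and at 9 of 10 Polycomb genes, with Ezh2 at 137 ± 28.9 (SD, n = 7). Cbx7 was the Polycomb gene without one. None of the 3 caudal-type genes (Cdx1, Cdx2, Cdx4), which activate Hox genes in embryos, or of the 3 ParaHox genes (Gsx1, Gsx2, Pdx1) had an OCR in any library. The labelled cell type was checked in the same way: 9 of 10 progenitor markers had an OCR in all libraries, all but Gata2, as did 0 of 4 B cell, 0 of 4 T cell, 0 of 3 hepatocyte, 0 of 3 pluripotent and 2 of 4 muscle and neuron markers (Ckm and Snap25). For the genes of these lists only the annotated gene start was scored. An OCR at another start, of Gata2 for example, would not be counted.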

How the data were processed

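Reads of 7 HPC7 bulk ATAC-seq libraries were trimmed with Cutadapt, aligned to mm10 with BWA-mem and called for peaks with MACS2 per library by the authors, and versions and options are not given in the sources used here. Each deposited list holds, per peak, a ratio of summit reads to background (each plus 1, termed fold enrichment), a −log10 p-value, a −log10 q-value, a score and a summit offset. The score deposited by the authors follows from the −log10 q and was not used, and values were not normalised between libraries beyond the background.

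Gene starts were taken from GENCODE M21, and an OCR was assigned to a start if at least 1 bp of it lay within 1 kb. Reads at the summit were recovered from fold enrichment, which was a whole multiple of 1 step within 0.05 for 100% of peaks. OCRs were merged over libraries when they overlapped by at least 1 bp. Differences in coverage were tested by exact sign flips over 7 libraries (a permutation test), adjusted by Benjamini-Hochberg within each family, and the test was checked on simulated data. The rule named the 3 strongest genes per cluster and those with an OCR in some libraries, given by their range over libraries, and the 2 strongest OCRs away from starts are given per cluster. The Hox genes, lists and motifs were chosen with earlier results of these data known, and the noncoding genes Hoxa11os, Hoxd3os1 and Haglr were added after values were seen. A few genes that the lists hold are not reported here by name. Alternatives covered peak stringency, equal list lengths, peak number, window, start, span, flank width and left-out libraries. Python 3.11.15, pandas 2.3.3, scipy 1.17.1 and pysam 0.24.0 were used.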

Additional observations from a re-analysis of the deposited data

Results flagged for a closer look

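In each of 26 measures, the lowest and the highest of the 7 libraries were compared with the others by the gap to the next library over the whole range (Dixon, 95% critical value 0.568), which chance alone exceeds in about 1 of 20 groups. It was exceeded in 4 measures, each time by HPC7-1 as the highest. The fold enrichment at the start of Hoxb6 was 34.5 in HPC7-1 against 10.1 in the next library, where the peak at the start was listed apart from the stronger one downstream. The base pairs in OCRs per kb were 36.7 against 25.6 in the Hoxb flanks, 104.9 against 77.9 in the Hoxd span and 106 against 75.9 in the segment of groups 1 to 4 of Hoxd. HPC7-1 also had the longest list, with 132852 OCRs, and the highest background, 20.4 reads, and the part of depth in these values was not tested.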

How the results depend on the processing

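Differences between spans and flanks kept their direction and stayed past the threshold under every alternative with 6 or 7 libraries. Within the libraries of either peak name, 3 or 4 are too few to pass it (smallest adjusted exact p = 0.125). The direction was kept there. With flanks of 50 kb, the differences were 63.9 for Hoxa, 37.3 for Hoxb, 21.5 for Hoxc and 50.8 bp per kb for Hoxd. For Hoxd the difference with 100 kb was 32.9. With an equal number of peaks per library, Hoxa minus Hoxd became 2.47, Hoxb minus Hoxd -2.37 and 3′ minus 5′ in Hoxc -0.20 bp per kb, none past the test. By peaks per 100 kb, Hoxa minus Hoxb was -1.55 and Hoxa minus Hoxd -4.16 (both past the test), and 3′ minus 5′ 0.37 in Hoxa, 2.77 in Hoxb and 1.33 in Hoxd (no longer past it). Without the stretch from Hoxb13 to Hoxb9, Hoxa minus Hoxb was -36.1 and Hoxb minus Hoxd 31.7. Divided at the midpoint of the span, 3′ minus 5′ was -36.4 in Hoxa, 98.9 in Hoxb, 40.1 in Hoxc and -16.6 in Hoxd. All were past the test. The count of Hox genes with an OCR in all libraries was 6 with the summit required in the window, and 10 or 11 with any library left out. Leaving out each library in turn kept every direction and call in coverage (Hoxa minus Hoxd from -6.20 to -1.28, the latter without HPC7-1), as did the libraries of either peak name in direction (chosen after seeing the data). The cause of these changes was not tested. The tests take differences within libraries. No paired analysis was possible between groups because the labels give 1 group. Where no OCR is listed, none was detectable at that depth: of the 46 OCRs not found in all libraries, 42 were listed in HPC7-1, 10 of them there alone, and the part of depth was not tested.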
